A study of Mus musculus with 12 samples.

Results

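The 10 genes described here regulate the G1 phase of the cell cycle: the D-type cyclins Ccnd1, Ccnd2 and Ccnd3, the E-type cyclin Ccne1, the kinases Cdk4 and Cdk6, the CDK inhibitors Cdkn1a, Cdkn1b and Cdkn2c, and the transcription factor gene Myc. They were picked by name as G1 regulators, several of which are known substrates or partners of Pim kinases, and all 10 were found by symbol among the 23997 genes with values. RNA-seq had been performed on bone marrow-derived macrophages (BMDMs) of C57BL/6 mice, as 12 libraries in 4 groups of 3. These were untreated WT, untreated Pim1-/-, WT treated with LPS and Pim1-/- treated with LPS, with LPS given at 100 ng/ml for 4 h. In every group, bone marrow of male mice aged 8 to 10 weeks was grown for 7 d with 10 ng/ml of human macrophage colony-stimulating factor (M-CSF). The Pim1-/- mice carry a CRISPR deletion of exons I to V of Pim1, so that the BMDMs also developed with this deletion. The sources do not give whether the libraries of a group came from separate mice or cultures, and p-values then measure only the spread between these libraries.

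D-type cyclins bind CDK4 and CDK6 and start the phosphorylation of the retinoblastoma protein, and cyclin E with CDK2 completes it, which frees E2F factors to switch on S phase genes. The INK4 protein p18, made by Cdkn2c, binds CDK4 and CDK6, whereas p21 and p27, made by Cdkn1a and Cdkn1b, act mainly on complexes with CDK2 and also help cyclin D to assemble with CDK4. Myc drives growth genes and is induced by M-CSF, the growth factor that keeps macrophage precursors in cycle. LPS, the ligand of TLR4, arrests cycling macrophages, and Pim kinases phosphorylate p21, p27 and Myc among other proteins.

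The values were read as FPKM, fragments per kilobase of transcript scaled to a library factor. Changes are log2 fold changes of log2(FPKM + 1) from limma with a standard error (SE). For low genes they understate the change, so folds of the mean FPKM are given where they differ much. A gene was called when it changed more than 2-fold with p under 0.05 and an FDR under 0.1, and was said to differ when the FDR alone was under 0.1. Adjusted p-values are Benjamini-Hochberg values over the 10581 genes that reached 1 FPKM in 3 or more libraries. All 10 genes passed this filter, 2 of them, Ccnd2 and Ccne1, without reaching 1 FPKM in untreated WT cells.

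Between replicates, Pearson's r across genes was 0.9958 to 0.9978, and the coefficient of variation of the 10 genes within a group was 1.70% to 14.1%. FPKM holds no counts. From the steps between low values, 1 FPKM over 1 kb corresponded to 37.5 to 45.4 fragments in untreated libraries and 21.1 to 31.8 after LPS, so that the gene with the fewest fragments, Ccne1 in untreated WT cells, rested on about 58.8 to 73.7 in a library. The summed FPKM of all genes was 452511 to 489710 in untreated and 713307 to 849323 in LPS-treated libraries. With libraries scaled to equal sums, the median log2 change of all genes was -0.67 in the LPS response of WT cells (0.00 on the deposited scale), -0.58 in that of Pim1-/- cells (-0.01) and 0.12 in the genotype difference after LPS (-0.03). LPS responses below are therefore relative to the median gene of the deposited scale.

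Pim1 itself was 25.0, 21.5 and 22.3 FPKM in untreated WT and 8.70, 8.00 and 9.51 in untreated Pim1-/- libraries. After LPS it was 665, 630.2 and 641 FPKM in WT and 216, 205 and 236 in Pim1-/- libraries. The genotypes did not overlap, with a log2 fold change of -1.30 untreated (SE 0.07, limma adjusted p = 8.4e-11) and -1.56 after LPS (SE 0.07, limma adjusted p = 9.1e-12), yet Pim1 was not near 0 in the Pim1-/- libraries and rose with LPS there (log2 fold change 4.50). A value per gene does not show whether the fragments fell in the deleted exons or in the part of the gene that remains.

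All 8 macrophage markers (Emr1, which encodes F4/80, Csf1r, Cd68, Itgam, Lyz2, Fcgr1, Mertk and Cd14) were at 1 FPKM or more in every group. Their summed level was 27853 to 29901 FPKM in untreated WT, 14378 to 15297 in untreated Pim1-/-, 30804 to 31298 in LPS-treated WT and 15921 to 17784 in LPS-treated Pim1-/- libraries, mostly from Lyz2 (26302 FPKM in untreated WT and 13297 in untreated Pim1-/- cells), whereas Cd14 was 167 and 160.3 and Cd68 1161 and 956. Csf1r, which encodes the M-CSF receptor, Fcgr1 and Mertk were called lower in Pim1-/- cells with and without LPS, and the other 5 markers were not called. The 3 early progenitor markers Kit, Cd34 and Gata2 summed to 2.48 to 2.80 FPKM in untreated WT and 13.4 to 14 in untreated Pim1-/- libraries. After LPS their sum was 1.18 to 1.33 in WT and 5.81 to 6.53 in Pim1-/- libraries. Cd34 was 0.84 FPKM in untreated WT and 11.5 in untreated Pim1-/- cells, and 0.56 and 5.53 after LPS. Kit was 1.74 and 2.31 untreated and 0.67 and 0.57 after LPS, and Gata2 was at or near 0. Markers of B cells summed to at most 0.04 FPKM in any library, those of T and NK cells to 0.59, of mast cells and basophils to 0.21, of erythroid cells to 0.38, of stromal cells to 1.00, of dendritic cells to 2.77 and of neutrophils to 8.20. In these bulk samples, fewer cells of a type and less RNA per cell cannot be told apart, and the part of the macrophage and progenitor markers in the genotype differences below was not tested.

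Promoter windows of 300 bases, from 250 before to 50 after a transcription start, were taken from RefSeq (GRCm38.p6) and matched 7 of the 10 genes with 10 windows. No window of Ccnd1, Ccnd2 or Myc was used here. The windows were searched on both strands for the E-box CACGTG, to which Myc-Max dimers can bind, for E2F-like letters (TTCCCGC or TTGGCGC), for a p53 half-site, for GAS-like letters (TTCNNNGAA) and for an NF-kB-like motif. Of 32851 windows in the table, 7.15% hold the E-box, 6.81% the E2F-like letters, 8.36% the p53 half-site, 8.30% the GAS-like letters and 8.46% the NF-kB-like motif. In the 10 windows no match of the last 2 motifs was found, and no matches overlapped. The windows of Ccne1, Cdkn1b and Ccnd3 held no match of any of these motifs. A match describes letters and not a bound site. Cdk4 and Cdk6 are shown because they encode partners of the same cyclins and moved in opposite directions with LPS, Cdkn1a because it was the inhibitor with the largest change, and Cdkn2c because it was the inhibitor called lower with LPS. Capitals mark E-boxes in Cdk4 and Cdk6, p53 half-sites in Cdkn1a and the E2F-like letters in Cdkn2c, and each sequence runs 5′ to 3′ on the strand of its gene.
Cdk4, chr10:127063285-127063584, plus strand: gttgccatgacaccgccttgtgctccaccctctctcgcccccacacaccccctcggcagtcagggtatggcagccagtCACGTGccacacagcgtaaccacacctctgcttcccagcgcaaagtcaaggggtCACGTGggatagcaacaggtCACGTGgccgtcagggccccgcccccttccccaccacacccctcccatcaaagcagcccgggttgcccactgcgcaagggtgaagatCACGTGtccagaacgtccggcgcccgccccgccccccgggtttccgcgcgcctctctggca
Cdk6, chr5:3343643-3343942, plus strand: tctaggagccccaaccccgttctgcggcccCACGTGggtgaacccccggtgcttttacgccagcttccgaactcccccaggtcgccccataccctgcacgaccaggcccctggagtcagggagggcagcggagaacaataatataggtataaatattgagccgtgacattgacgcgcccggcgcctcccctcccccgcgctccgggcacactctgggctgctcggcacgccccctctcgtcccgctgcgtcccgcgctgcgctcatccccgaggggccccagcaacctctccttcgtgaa
Cdkn1a, upstream start, chr17:29090729-29091028, plus strand: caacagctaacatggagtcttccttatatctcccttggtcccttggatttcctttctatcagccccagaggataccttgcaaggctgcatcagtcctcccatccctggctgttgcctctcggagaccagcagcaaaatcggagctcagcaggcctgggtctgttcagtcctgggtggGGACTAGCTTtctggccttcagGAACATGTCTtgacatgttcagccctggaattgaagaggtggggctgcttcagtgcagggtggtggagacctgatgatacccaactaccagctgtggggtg
Cdkn2c, chr4:109666707-109667006, minus strand: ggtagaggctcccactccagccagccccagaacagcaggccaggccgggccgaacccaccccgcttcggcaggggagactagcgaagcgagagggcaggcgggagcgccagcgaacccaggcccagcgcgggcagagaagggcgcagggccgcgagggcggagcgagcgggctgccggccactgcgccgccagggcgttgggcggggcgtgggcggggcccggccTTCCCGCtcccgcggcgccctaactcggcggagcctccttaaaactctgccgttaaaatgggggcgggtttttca
The Cdk4 window holds 4 E-boxes, at -172, -118, -98 and -11 from the start. The Cdk6 window holds 1, at -220. The upstream Cdkn1a window holds p53 half-sites at -73 and -51, and the second Cdkn1a window held none of the motifs. The Cdkn2c window holds the E2F-like letters at -25, and a second Cdkn2c window, at another start, holds an E-box at 34.

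In untreated cells, 4 of the 10 genes were called higher in Pim1-/- than in WT and none lower. They were Ccnd1, Ccne1, Ccnd2 and Myc, with log2 fold changes of 2.60, 1.75, 1.39 and 1.15. Of all genes tested, 4.4% were called higher and 3.37% lower. After LPS, Cdk4 alone was called higher (1.12), against 3.51% of all genes, and Cdkn1a (-1.29) and Ccnd2 (-1.02) were called lower, against 5.15%. Without a fold threshold all 10 genes differed in both comparisons, where 78.8% of all genes differed untreated and 80.9% after LPS, and in all 10 the genotypes did not overlap, where 78.4% and 77.5% of all genes did not. At an FDR under 0.05 all 10 also passed in both, where 74.7% and 77.4% of all genes did. The median log2 fold change of the 10 genes was 0.66 untreated and -0.28 after LPS, beside -0.05 and -0.03 over all genes. The group means of the 2 comparisons share no libraries, but each comparison shares its libraries with the LPS responses. For each gene, all 12 libraries give 1 estimate of the spread, which both comparisons use.

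**Figure D1:**
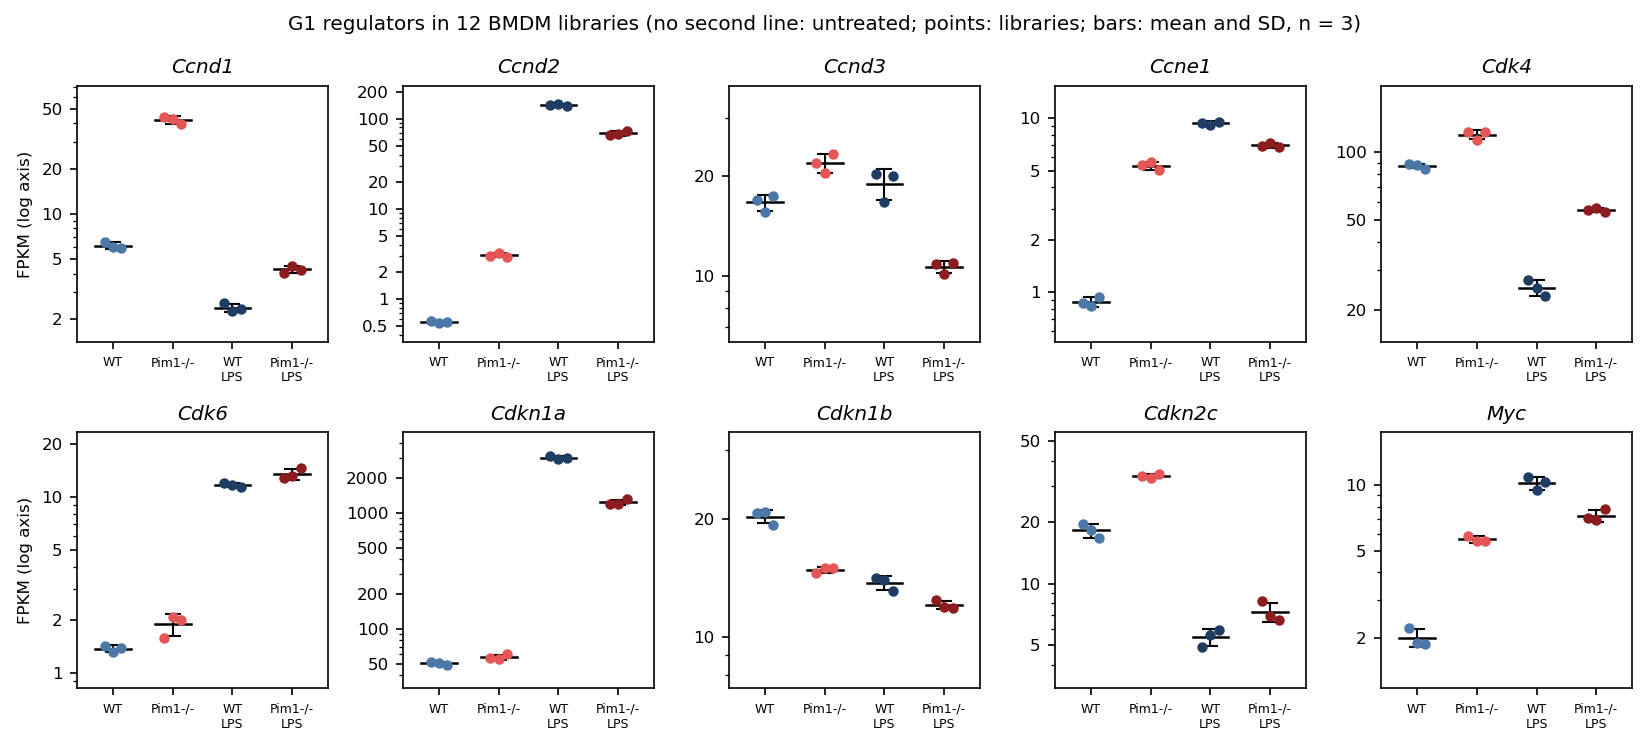
FPKM (log axis) of each of the 10 genes in the 12 libraries, by group, with points for libraries and bars for the mean and SD of 3 libraries. Ccnd1 was highest in untreated Pim1-/- cells (39.6 to 44.4 FPKM), whereas Ccnd2, Ccne1, Cdkn1a and Myc were highest in LPS-treated WT cells.

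Ccnd1 encodes cyclin D1, the D-type cyclin most closely tied to growth factor signals (GENCODE M21, chr7:144929931-144939925, minus strand). It was 6.50, 6.05 and 5.89 FPKM in untreated WT and 44.4, 42.8 and 39.6 FPKM in untreated Pim1-/- libraries. After LPS it was 2.53, 2.25 and 2.32 FPKM in WT and 4.05, 4.52 and 4.25 FPKM in Pim1-/- libraries. No groups overlapped, and untreated Pim1-/- cells stood far above the other groups. The genotype difference was 6.88-fold in mean FPKM without LPS (log2 fold change 2.60, SE 0.06, limma adjusted p = 5.5e-15) and 1.81-fold with LPS (0.65, SE 0.06, limma adjusted p = 6.1e-08), the second not past the 2-fold threshold. Ccnd1 fell with LPS in both genotypes, by 1.09 on the log2 scale in WT and by 3.04 in Pim1-/- cells. The fall in WT cells was not called under quantile normalization (-0.87). Oraov1 overlaps Ccnd1 on the opposite strand and was at 4.69 to 7.47 FPKM in the group means, above Ccnd1 in every group other than untreated Pim1-/- cells. The sources do not give whether the counting used strand, and without it reads of the overlap cannot be told apart.

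Ccnd2, the gene of cyclin D2 (chr6:127125162-127152193, minus strand), showed the widest range of the D-type cyclins. It was 0.579, 0.541 and 0.567 FPKM in untreated WT and 3.04, 3.29 and 2.96 FPKM in untreated Pim1-/- libraries. LPS-treated WT libraries had 141.5, 144 and 138 FPKM and LPS-treated Pim1-/- libraries 65.8, 67.8 and 73.4 FPKM. The order of the genotypes was thus opposite with and without LPS, and no groups overlapped. Untreated Pim1-/- cells had 5.51-fold the mean FPKM of untreated WT cells (log2 fold change 1.39, SE 0.05, limma adjusted p = 1.1e-12), and after LPS WT cells had 2.05-fold that of Pim1-/- cells (-1.02, SE 0.05, limma adjusted p = 4.3e-11). The call after LPS was near the 2-fold threshold and was lost under quantile normalization (-0.70), with equal FPKM sums (-0.82) and without LPS-treated Pim1-/- replicate 1 (-0.99). LPS raised Ccnd2 251-fold in mean FPKM in WT cells and 22.3-fold in Pim1-/- cells, from a WT level under 1 FPKM. An antisense gene that overlaps Ccnd2, 9330179D12Rik, was at 0 to 1.16 FPKM in the group means, highest in LPS-treated WT cells.

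Ccnd3 encodes cyclin D3 and lies on chromosome 17 (chr17:47505051-47599691, plus strand). It was 17.0, 15.6 and 17.4 FPKM in untreated WT, 21.9, 20.5 and 23.4 in untreated Pim1-/-, 20.4, 16.7 and 20.0 in LPS-treated WT and 10.9, 10.1 and 10.9 in LPS-treated Pim1-/- libraries. LPS-treated Pim1-/- cells were the lowest group, and untreated and LPS-treated WT cells overlapped. The genotype difference was 0.37 untreated (SE 0.07, limma adjusted p = 0.00019) and -0.78 after LPS (SE 0.07, limma adjusted p = 7.6e-08), neither past 2-fold. In WT cells the response to LPS was 0.17 on the deposited scale but -0.18 under quantile normalization and -0.59 with equal FPKM sums, so that it has no settled sign. In Pim1-/- cells Ccnd3 fell by 0.97 on the log2 scale, and this passed 2-fold with a pseudocount of 0.1 (-1.03), under quantile normalization (-1.24), with equal sums (-1.60) and without untreated Pim1-/- replicate 2 (-1.02). Bysl, on the opposite strand of Ccnd3, was at 3.17 to 4.97 FPKM in the group means.

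The 3 D-type cyclins together came to 23.4 ± 1.01 FPKM in untreated WT, 67.3 ± 1.77 in untreated Pim1-/-, 162.7 ± 1.88 in LPS-treated WT and 83.9 ± 4.16 in LPS-treated Pim1-/- cells (mean ± SD, n = 3). Their make-up differed as well, mainly between untreated WT, untreated Pim1-/- and the LPS-treated groups. Ccnd3 made up 71.3% of the sum in untreated WT cells, whereas Ccnd1 made up 62.8% in untreated Pim1-/- cells. After LPS, Ccnd2 made up 86.9% in WT and 82.2% in Pim1-/- cells. Ccnd1 was 1.45% of the sum in WT and 5.10% in Pim1-/- cells after LPS.

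**Figure D2:**
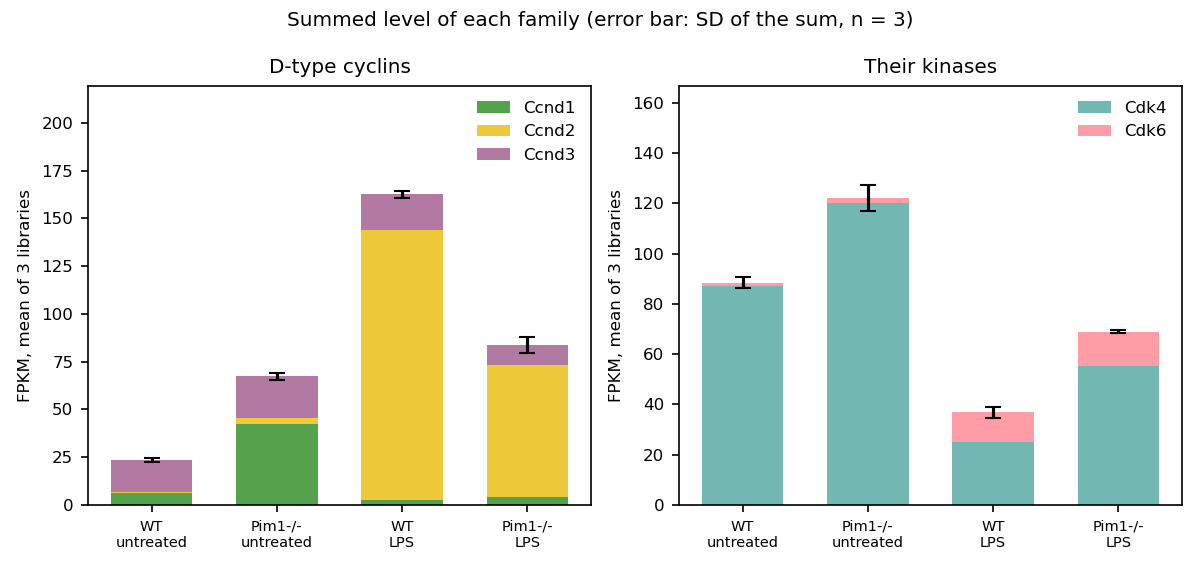
Summed mean FPKM of the D-type cyclins and of Cdk4 and Cdk6 by group, with bars starting at 0 and error bars for the SD of the sum over 3 libraries. The largest D-type cyclin was Ccnd3 in untreated WT, Ccnd1 in untreated Pim1-/- and Ccnd2 in both LPS-treated groups, and Cdk6 made up 32.1% of the kinase sum in LPS-treated WT cells.

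Ccne1, the gene of cyclin E1 that activates CDK2 at the end of G1 (chr7:38097984-38107534, minus strand), was 0.871, 0.829 and 0.941 FPKM in untreated WT and 5.40, 5.58 and 5.01 FPKM in untreated Pim1-/- libraries. After LPS it was 9.44, 9.12 and 9.57 FPKM in WT and 6.90, 7.22 and 6.83 FPKM in Pim1-/- libraries. Untreated WT cells stood alone at the bottom, and the other groups lay within 5.01 to 9.57 FPKM without overlapping. The genotype difference was 6.05-fold in mean FPKM untreated (log2 fold change 1.75, SE 0.05, limma adjusted p = 1.2e-13) and -0.38 on the log2 scale after LPS (SE 0.05, limma adjusted p = 6.9e-06). LPS raised Ccne1 10.7-fold in mean FPKM in WT cells. In Pim1-/- cells the response was 0.34 on the deposited scale and -0.24 with equal FPKM sums.

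The kinase genes Cdk4 and Cdk6 encode the 2 partners of D-type cyclins. Cdk4 (chr10:127063534-127067920, plus strand) was 88.7, 87.8 and 84.7 FPKM in untreated WT and 123.4, 114 and 123.0 FPKM in untreated Pim1-/- libraries. After LPS it was 27, 25 and 23 FPKM in WT and 55.4, 56.4 and 54.6 FPKM in Pim1-/- libraries, so that Pim1-/- cells were above WT cells in both conditions. The genotype difference was 0.46 untreated (SE 0.05, limma adjusted p = 1.1e-06) and 1.12 after LPS (SE 0.05, limma adjusted p = 2.9e-11), and only the second passed 2-fold. Cdk4 fell with LPS by 1.76 on the log2 scale in WT and by 1.10 in Pim1-/- cells. Tspan31 overlaps Cdk4 on the opposite strand and was at 53 to 76.7 FPKM in the group means, so that the same limit holds. Across groups Tspan31 was highest in LPS-treated WT cells, where Cdk4 was lowest, and the part of Tspan31 reads in the Cdk4 values was not tested.

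Cdk6 (chr5:3341485-3531008, plus strand) was 1.43, 1.30 and 1.39 FPKM in untreated WT, 1.59, 2.08 and 2.0 in untreated Pim1-/-, 12.1, 11.8 and 11.5 in LPS-treated WT and 12.8, 13.2 and 14.6 in LPS-treated Pim1-/- libraries. LPS raised it 8.58-fold in mean FPKM in WT cells (log2 fold change 2.43, SE 0.07, limma adjusted p = 6.5e-15) and 7.16-fold in Pim1-/- cells (2.33, SE 0.07, limma adjusted p = 1.6e-14). The responses were not shown to differ: the difference was -0.10 (95% interval -0.30 to 0.11, limma adjusted p = 0.39), with a sign that turned to 0.02 with equal FPKM sums. Cdk6 made up 1.55% of the summed Cdk4 and Cdk6 FPKM in untreated cells of both genotypes, 32.1% in LPS-treated WT and 19.6% in LPS-treated Pim1-/- cells. The sum itself was 88.4 FPKM in untreated WT, 122.1 in untreated Pim1-/-, 36.8 in LPS-treated WT and 69.0 in LPS-treated Pim1-/- cells.

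Cdkn1a, the gene of the CDK inhibitor p21 (chr17:29090976-29100727, plus strand), lies 390025 bases upstream of Pim1 on the same chromosome. It was 51.1, 50.8 and 48.9 FPKM in untreated WT and 55.5, 54.7 and 60.2 FPKM in untreated Pim1-/- libraries. After LPS it reached 3111, 2944 and 3017 FPKM in WT and 1188, 1203 and 1317 FPKM in Pim1-/- libraries, the highest values of the 10 genes. The untreated genotypes were close (log2 fold change 0.17, SE 0.05, limma adjusted p = 0.0051), and after LPS WT cells had 2.45-fold the mean FPKM of Pim1-/- cells (-1.29, SE 0.05, limma adjusted p = 2.7e-12). LPS raised Cdkn1a 60.1-fold in WT and 21.8-fold in Pim1-/- cells. Its share of the summed FPKM of the 3 inhibitors was 56.6% in untreated WT and 53.9% in untreated Pim1-/- cells, and 99.4% and 98.5% after LPS.

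Cdkn1b, which encodes p27 (chr6:134920401-134925513, plus strand), stayed within 11.9 to 20.8 FPKM over all libraries. It was 20.8, 20.8 and 19.4 FPKM in untreated WT, 14.6, 15 and 15 in untreated Pim1-/-, 14.2, 14 and 13.2 in LPS-treated WT and 12.4, 12.0 and 11.9 in LPS-treated Pim1-/- libraries. Untreated WT cells were the highest group, and none of its comparisons passed 2-fold. The genotype difference was -0.43 untreated (SE 0.05, limma adjusted p = 5.8e-07) and -0.18 after LPS (SE 0.05, limma adjusted p = 0.0026), the second turning to 0.02 with equal FPKM sums. Its response to LPS in WT cells was -0.53, and -1.29 with equal sums, where it was called.

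Cdkn2c, the gene of the INK4 inhibitor p18 (chr4:109660876-109667189, minus strand), was 19.6, 18.2 and 16.8 FPKM in untreated WT and 33.6, 32.9 and 34.3 FPKM in untreated Pim1-/- libraries. After LPS it was 4.91, 5.62 and 5.92 FPKM in WT and 8.18, 6.97 and 6.65 FPKM in Pim1-/- libraries. Pim1-/- cells were above WT cells in both conditions, by 0.85 untreated (SE 0.07, limma adjusted p = 5.9e-08) and 0.35 after LPS (SE 0.07, limma adjusted p = 0.00054), neither past 2-fold. Under quantile normalization the untreated difference was called (1.02). LPS lowered Cdkn2c in both genotypes, with log2 fold changes of -1.57 and -2.07.

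Myc (chr15:61985391-61990374, plus strand) was 2.23, 1.91 and 1.89 FPKM in untreated WT and 5.87, 5.54 and 5.55 FPKM in untreated Pim1-/- libraries. After LPS it was 10.9, 9.48 and 10.3 FPKM in WT and 7.09, 6.92 and 7.77 FPKM in Pim1-/- libraries. As with Ccnd2, Ccnd3, Ccne1 and Cdkn1a, the Pim1-/- values were above WT without LPS and below WT with LPS, and no groups of Myc overlapped. The genotype difference was 2.81-fold in mean FPKM untreated (log2 fold change 1.15, SE 0.06, limma adjusted p = 2.5e-10) and -0.44 on the log2 scale after LPS (SE 0.06, limma adjusted p = 1.1e-05). LPS raised Myc 5.10-fold in WT cells, whereas the response in Pim1-/- cells was 0.31 on the deposited scale and -0.27 with equal FPKM sums.

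**Figure D3:**
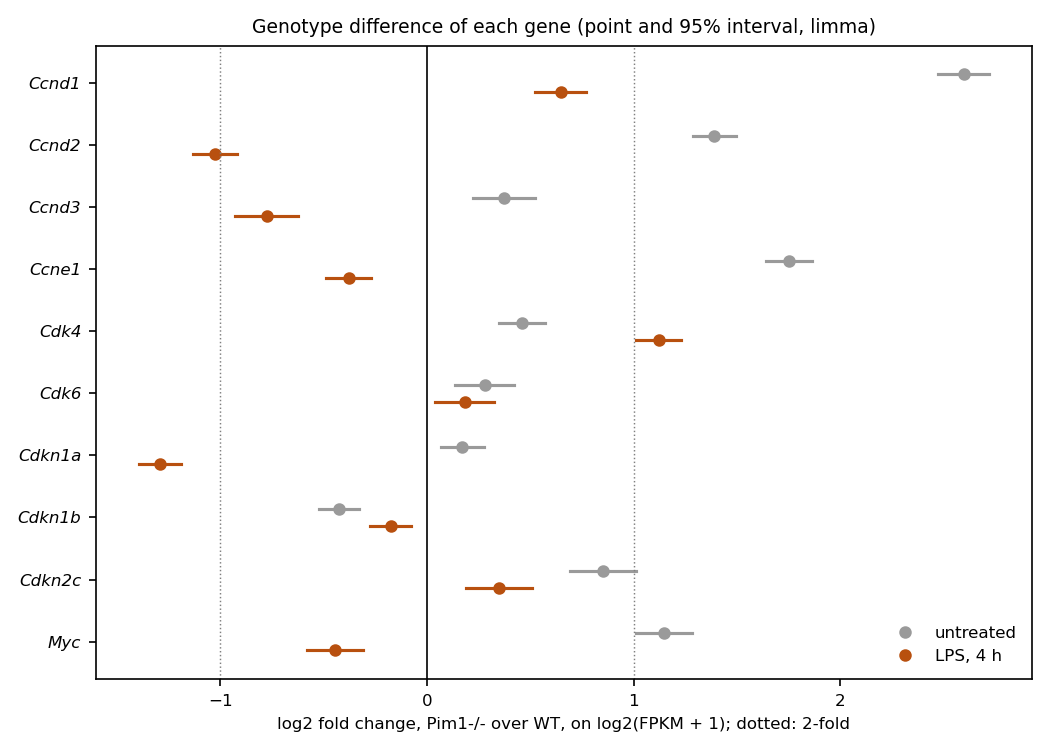
Log2 fold change of Pim1-/- over WT for each gene, untreated (grey) and after LPS (orange), as point and 95% interval from limma, with dotted lines at 2-fold. Ccnd1, Ccne1, Ccnd2 and Myc lay above 2-fold in untreated cells, and Cdk4 alone did so after LPS, where Ccnd2 and Cdkn1a lay below 2-fold lower.

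With LPS, 5 of the 10 genes were called higher in WT cells (Ccnd2, Cdkn1a, Ccne1, Cdk6 and Myc, log2 fold changes 6.51, 5.88, 2.46, 2.43 and 1.90) and 3 lower (Cdk4, Cdkn2c and Ccnd1, -1.76, -1.57 and -1.09). Of all genes, 20.1% were called higher and 14.7% lower. In Pim1-/- cells 3 were called higher (Cdkn1a, Ccnd2 and Cdk6, log2 fold changes 4.42, 4.10 and 2.33), against 14.6% of all genes, and 3 lower (Ccnd1, Cdkn2c and Cdk4), against 10.4%. All 10 genes differed with LPS in both genotypes, where 91.2% of all genes did so in WT and 87.2% in Pim1-/- cells (84.6% at an FDR under 0.05). Values of the groups did not overlap for 9 genes in WT (90.4% of all genes) and for 10 in Pim1-/- cells (83.8%). The gene with overlapping values in untreated and LPS-treated WT cells was Ccnd3. The median response of the 10 genes was 1.04 in WT and 0.02 in Pim1-/- cells, where the median gene moved by 0.00 and -0.01.

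The difference between these responses, Pim1-/- minus WT, was tested as an interaction. It was called lower for 6 genes and higher for none, where 4.43% of all genes were called lower and 2.24% higher. The differences were -2.41 for Ccnd2 (SE 0.07, limma adjusted p = 1.1e-12), -2.13 for Ccne1 (SE 0.07, limma adjusted p = 6e-12), -1.95 for Ccnd1 (SE 0.08, limma adjusted p = 4e-11), -1.59 for Myc (SE 0.09, limma adjusted p = 9.9e-10), -1.46 for Cdkn1a (SE 0.07, limma adjusted p = 1.4e-10) and -1.15 for Ccnd3 (SE 0.10, limma adjusted p = 1.1e-07). The kinases and the other inhibitors were not called, with 0.66 for Cdk4, -0.50 for Cdkn2c and 0.25 for Cdkn1b. Of the 10 genes 9 differed without a fold threshold, where 68.5% of all genes did. For Ccne1 and Myc the WT response exceeded 2-fold and the Pim1-/- response did not, for Ccnd1 the fall was larger in Pim1-/- cells, and for Ccnd2 and Cdkn1a both genotypes rose. The genotype differences given above for the same genes use the same libraries. For Ccnd1, Ccne1, Ccnd2 and Myc they were larger in size untreated than after LPS.

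**Figure D4:**
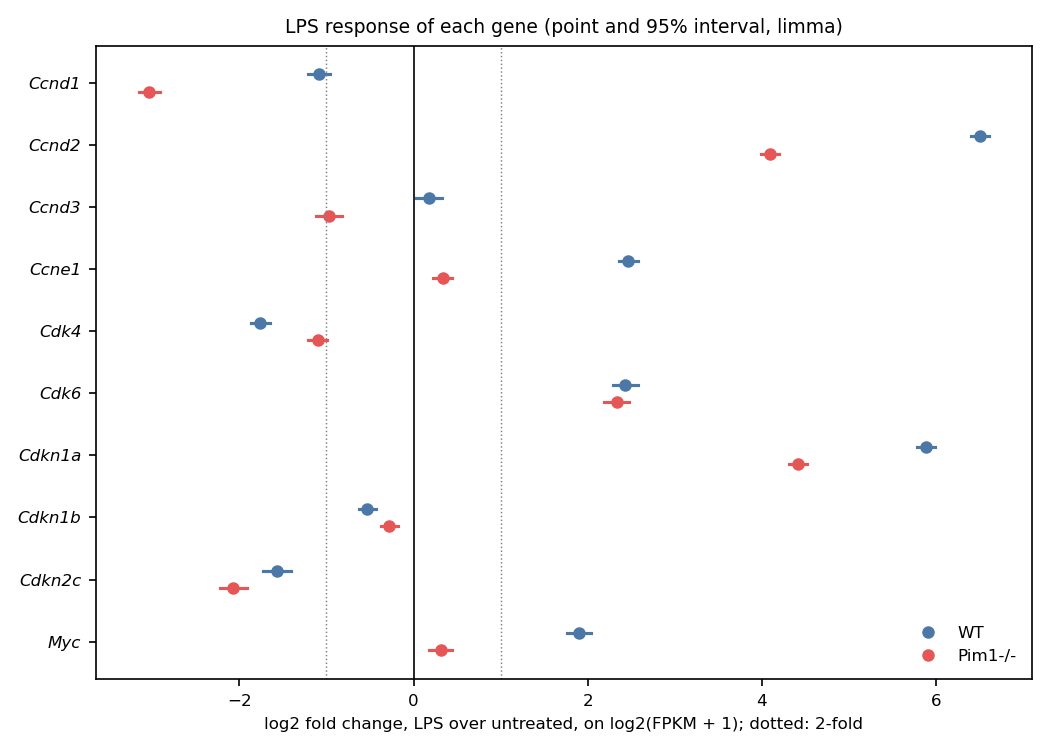
Log2 fold change of LPS-treated over untreated cells for each gene in WT (blue) and Pim1-/- cells (red), as point and 95% interval from limma, with dotted lines at 2-fold. The intervals of the genotypes overlap for Cdk6, and for the 6 genes with a called difference the Pim1-/- point lies to the left of the WT point.

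Other genes of the same pathway were taken from lists. Of all genes, 4.4% were called higher and 3.37% lower untreated between genotypes, and 3.51% and 5.15% after LPS. Of 9 other cyclins, CDKs and CDC25 phosphatases of G1 and S, 4 were called higher in untreated Pim1-/- cells and none lower. These were Ccna2, which encodes cyclin A2 (4.12), Ccne2 (2.51), Cdc25c (2.25) and Cdc25b (1.03). After LPS, Ccna2 (2.78), Cdc25b (1.68) and Cdc25c (1.40) were called higher and none lower. Cdk2, the partner of cyclin E, was 12.2 FPKM in untreated WT and 16.4 in untreated Pim1-/- cells and was called lower with LPS in both genotypes (-1.71 and -1.70). Among 4 other CDK inhibitor genes, Cdkn2a and Cdkn2b did not pass the filter. Cdkn2d, which encodes the INK4 inhibitor p19, was called higher in untreated Pim1-/- cells (1.23) and rose with LPS in WT cells (1.08), and its LPS response was lower in Pim1-/- cells (-1.70). Cdkn1c, which encodes p57, was -0.92 untreated and -0.88 after LPS between genotypes.

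Of 10 genes for the turnover of G1 regulators, 2 were called higher in Pim1-/- cells in both conditions and none lower. Of all genes, 4.4% were called higher untreated and 3.51% after LPS. The 2 were Cks1b, the cofactor with which SKP2 recognises p27 (2.83 untreated and 2.50 after LPS), and its relative Cks2 (2.82 and 1.92). Skp2 itself was not called between genotypes (0.42 and 0.24) and was called lower with LPS in both (-1.68 in WT and -1.86 in Pim1-/- cells). Of 13 pocket protein and E2F genes, 4 were called higher in untreated Pim1-/- cells and none lower: E2f8 (2.01), Rbl1 (1.58), E2f7 (1.54) and E2f2 (1.15). Of all genes, 4.4% were called higher and 3.37% lower there. After LPS 1 was called higher, E2f1 (1.00), and 1 lower, E2f8 (-1.40), against 3.51% and 5.15% of all genes. The difference in LPS response was called lower for 4 of the 13 (E2f8, -3.41, Rbl1, -2.05, E2f7, -1.45, and E2f2, -1.02), and higher for none. Of all genes it was called lower for 4.43% and higher for 2.24%. E2f2 fell from 4.82 to 0.06 FPKM in WT and from 11.9 to 0.16 in Pim1-/- cells. E2f7 was at 0.01 and 0.07 FPKM after LPS. The pseudocount of 1 exceeds these LPS values, so that the differences of both genes mainly reflect untreated levels and are not read as unlike responses.

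The MAX network holds the partners and antagonists of Myc, and 9 of its 10 genes passed the filter. Max, the dimer partner, was called higher with LPS in WT (2.47) and Pim1-/- cells (1.93), as were the antagonist Mxd1 (3.57 and 3.26) and Mycl, a relative of Myc (4.37 and 4.61). The antagonists Mnt (-3.40 and -2.23) and Mxd4 (-3.03 and -1.61) were called lower in both. In untreated cells Mxd3 was called higher in Pim1-/- (2.52) and Mxd4 lower (-1.16). After LPS, Mxd1 was called lower in Pim1-/- cells (-1.11). Mycl was at 0.06 FPKM in untreated WT and 20.9 FPKM in LPS-treated WT cells, per length above Myc in the same group.

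Of 20 known Myc targets of ribosome biogenesis and metabolism, 4 were called higher in untreated Pim1-/- cells and none lower. Of all genes, 4.4% were called higher and 3.37% lower there. The median of the 20 was 0.43 beside -0.05 over all genes. Called higher were Nop58 (1.25) and Nop56 (1.09) of the small nucleolar particles, Eif4e (1.11), the cap-binding translation factor, and Tfrc (1.07), the transferrin receptor. After LPS Tfrc alone was called higher (1.32) and none lower, against 3.51% and 5.15% of all genes. With LPS in WT cells, 5 of the 20 were called higher (Wdr43, 2.92, Eif4e, 1.68, Odc1, 1.51, Ddx21, 1.2, and Nop58, 1.17) and 1 lower (Polr1b, -1.13), where 20.1% and 14.7% of all genes were called. In Pim1-/- cells 1 was called higher (Wdr43, 2.12) and 1 lower (Gnl3, -1.12), against 14.6% and 10.4% of all genes. The difference in response was called lower for 2 of the 20, Eif4e (-1.20) and Nop58 (-1.19), against 4.43% of all genes.

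Cdkn1a is a target of p53, and 11 of 12 other p53 target genes passed the filter. With LPS in WT cells 1 of the 11 was called higher, Mdm2 (2.0), the ubiquitin ligase of p53, and 4 were called lower: Sesn1 (-5.39), Trp53inp1 (-2.80), Sesn2 (-1.54) and Zmat3 (-1.15), where 20.1% and 14.7% of all genes were called. In Pim1-/- cells Mdm2 rose to the same extent (2.01), and Sesn1 (-3.92), Trp53inp1 (-1.42) and Phlda3 (-1.30) were called lower. Mdm2 was not called between genotypes (-0.10 untreated and -0.09 after LPS), where Cdkn1a was lower after LPS. None of the 11 was called between genotypes after LPS, where 3.51% of all genes were called higher and 5.15% lower. Without a fold threshold 9 differed, 4 higher and 5 lower in Pim1-/- cells, where 80.9% of all genes did. Phlda3 was 2.30 FPKM in LPS-treated WT and 0.69 in LPS-treated Pim1-/- cells, under the pseudocount of 1, and Sesn2 was 1.46 and 3.04. In untreated Pim1-/- cells 3 of the 11 were called lower, against 3.37% of all genes: Sesn1 (-1.39), Gadd45a (-1.14) and Btg2 (-1.12). The difference in LPS response was called higher for 4 of the 11 (Sesn1, 1.46, Trp53inp1, 1.38, Sesn2, 1.26, and Bbc3, 1.09) and lower for none. Of all genes it was called higher for 2.24% and lower for 4.43%. For Cdkn1a the difference was -1.46.

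Of 12 genes upstream of the D-type cyclins and p27, Ets2, a transcription factor gene, was called higher (1.02) and Csf1r lower (-1.59) in untreated Pim1-/- cells. Of all genes, 4.4% were called higher and 3.37% lower there. After LPS Jun (-1.33), Csf1r (-1.32) and Fos (-1.12) were called lower and none higher, against 5.15% and 3.51% of all genes. The FoxO genes, whose products can activate Cdkn1b, fell with LPS in WT cells, with -2.69 for Foxo3, -1.51 for Foxo4 and -1.19 for Foxo1, and in Pim1-/- cells Foxo3 was called (-1.43). Csf1r was 764 FPKM in untreated WT and 254 in untreated Pim1-/- cells, and its part in the values of the 10 genes was not tested. Genes of S phase and mitosis moved with genotype as well. All 6 on a short list (Mki67, Top2a, Ccnb1, Pcna, Mcm2 and Mcm5) were called higher in untreated Pim1-/- cells, against 4.4% of all genes. Their median was 3.23. After LPS 4 of 6 were called higher, against 3.51% of all genes. Mki67 in contrast was lower in Pim1-/- than in WT cells (26.2 and 28.6 FPKM). Its difference in LPS response was -3.63. The part of these S phase and mitosis genes in the values of the 10 genes was not tested.

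**Figure D5:**
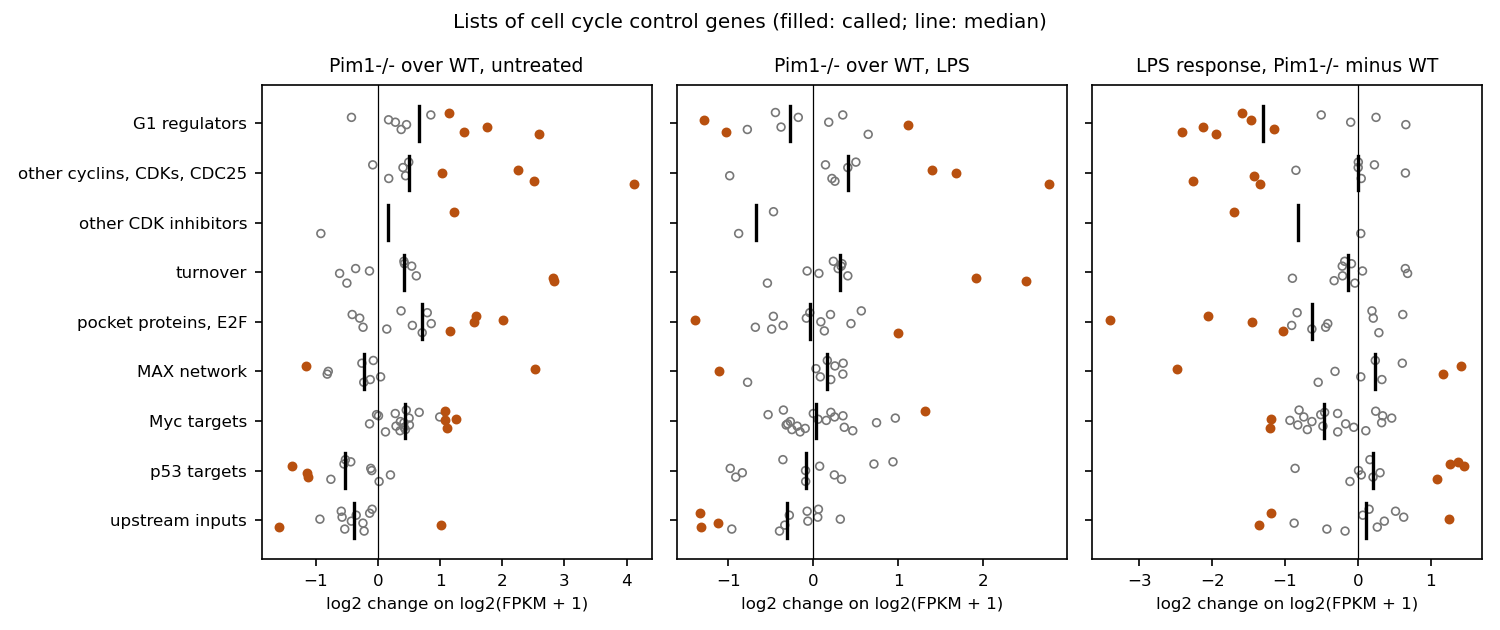
Log2 change of each tested gene of 9 lists for the genotype difference untreated, the genotype difference after LPS and the difference in LPS response (x axes), with filled points for called genes, open points for the others and a line at the median of the list. For the G1 regulators the median was 0.66, -0.28 and -1.31 from left to right, and the called points lie on the right in the first panel and on the left in the last.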

How the data were processed

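RNA-seq of 12 BMDM libraries was analysed from the deposited tables, 1 value per gene and library. The authors prepared stranded mRNA libraries, trimmed and mapped the reads (cutadapt 1.18, TopHat2 2.0.13) and computed FPKM with Cuffdiff 2.2.1. The deposited columns carry no unit and were read as FPKM. The submitters' processing notes name mm10 and the methods name rat rn5; 22694 of 23997 gene names are symbols of GENCODE M21. For the library normalization and the annotation the sources used here name nothing.

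The 10581 genes that reached 1 FPKM in 3 or more libraries were fitted as log2(FPKM + 1) with limma 3.58.1 (R 4.3.3), 4 group means and a mean-variance trend. Groups came from the labels. Named genes are the 10 regulators, Pim1 and, per list and comparison, up to 3 called genes with the largest change in each direction, plus any that a count of 5 or fewer needs. Other genes named were chosen after their values were seen. The members and lists were chosen with earlier results of these data known. Whole fragments were estimated from steps between values up to 0.1 FPKM in transcripts of at least 1000 bases, where 72.9% to 82.8% of these were whole multiples to within 0.1 and 20% would by chance, so depth is approximate. The fit was tested on simulated data. Alternatives covered the pseudocount, filter, scaling, samples in the fit, replicate block, trend, threshold and leaving out each library. Tables were made in Python 3.11.15 (pandas 2.3.3 with numpy 2.4.6) and plots with matplotlib 3.10.9.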

Additional observations from a re-analysis of the deposited data

Results flagged for a closer look

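The difference in LPS response was called lower for 6 of the 10 genes, by a test of the difference itself, where 4.43% of all genes were. Without a fold threshold 9 of the 10 differed, where 68.5% of all genes did. On the log2 scale, as Pim1-/- minus WT, the difference was -2.41 for Ccnd2, -2.13 for Ccne1, -1.95 for Ccnd1, -1.59 for Myc, -1.46 for Cdkn1a and -1.15 for Ccnd3 (limma, interaction term, 3 libraries a group). Of these, Ccnd2, Ccne1, Myc, Ccnd3 and Cdkn1a were higher in Pim1-/- than in WT cells without LPS and lower with LPS, whereas Ccnd1 was higher in both. The genotype difference was larger in size untreated than after LPS for Ccnd1 (2.60 and 0.65), Ccne1 (1.75 and -0.38) and Myc (1.15 and -0.44). So it was for Ccnd2 (1.39 and -1.02), and the opposite held for Cdkn1a (0.17 and -1.29) and Ccnd3 (0.37 and -0.78). The differences in response of these 6 genes thus also reflect untreated levels. The genotypes did not overlap in these genes, as in 78.4% of all genes untreated and 77.5% after LPS. Among the genes that changed order, Ccnd2 alone was called in both conditions. Ccne1 and Myc were called only untreated, Cdkn1a only after LPS and Ccnd3 in neither. No group had enough libraries for a test of single libraries.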

How the results depend on the processing

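Of 800 values of single genes under the alternatives, 790 kept their call, 10 gained or lost it, and no called value changed sign. The 10 are the values of Ccnd1, Ccnd2, Ccnd3, Cdkn1b and Cdkn2c given in the report. With an FDR under 0.05 and no fold threshold, 10 of 10 genes passed untreated between genotypes, 10 after LPS between genotypes and 10 for LPS in Pim1-/- cells, where 74.7%, 77.4% and 84.6% of all genes passed, so that these counts say little about the 10 genes. Scaling to equal FPKM sums was chosen after seeing the data. With it, the share of higher genes among all genes called moved from 57.8% to 24.3% for LPS in WT, from 58.4% to 25.7% for LPS in Pim1-/- cells, from 40.5% to 60.1% after LPS between genotypes and from 33.6% to 46.0% for the difference in response, which was 47.4% with a pseudocount of 0.1. Under quantile normalization the first 2 shares were 47.6% and 49.1%, and the median gene was at -0.17 and -0.18. With a filter of 5 FPKM the median gene of LPS in WT was at 0.17. The correlation of same-numbered deviations between groups, over 5410 genes of at least 10 FPKM on average, was -0.177 to 0.084 for replicate 1, 0.096 to 0.454 for replicate 2 and 0.085 to 0.462 for replicate 3. Not every value was over 0.1, so the numbers were not taken as pairs. With the replicate number as a block none of 50 calls changed (4 genes called untreated between genotypes, 3 after LPS, 8 for LPS in WT, 6 in Pim1-/- cells and 6 for the difference). Depth limits Ccne1 and Ccnd2 in untreated WT cells most, where a pseudocount of 1 exceeds the values.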

Other observations

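The tested genes whose log2(FPKM + 1) profile over the 12 libraries, centred on its mean, lay closest to that of each regulator were found by the root mean square difference. Cdkn1b was closest to Klhl26 (0.04), Cdk4 to Haus8 (0.07), Ccnd1 to Ccnf (0.12), which encodes cyclin F, Cdk6 to Lancl2 (0.12) and Ccnd3 to Mum1 (0.12), followed by Cdc25a (0.12). Cdkn2c was closest to E2f6 (0.13), Myc to Eif4e (0.16), Cdkn1a to Vcam1 (0.17), Ccne1 to Timeless (0.19) and Ccnd2 to Tnfsf9 (0.25). Cdkn1a was itself the second closest to Ccnd2, at 0.45. The 12 points share the group structure, so that any gene with a like response in each group comes near. Tnfsf9, a TNF family ligand, was 2.87 FPKM in untreated WT, 7.87 in untreated Pim1-/-, 242 in LPS-treated WT and 119 in LPS-treated Pim1-/- cells, and Vcam1 was at 0.06 and 0.05 FPKM in untreated WT and Pim1-/- cells and at 68.2 and 28.2 FPKM after LPS.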
